A study of Mus musculus with 8 samples.

Results

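The unfolded protein response genes described here are 10 genes picked by name, Ern1, Eif2ak3, Atf6, Atf4, Xbp1, Ddit3, Calr, Canx, Sdf2l1 and Herpud1, out of 13996 genes with a deposited expression level. Their RNA was measured in the brain cortex of male C57BL/6 mice, 4 on a conventional (normal) diet and 4 on a high fat diet (HFD) of 60% fat by weight. Feeding began at 8 weeks of age and lasted 8 weeks, so that the mice were 16 weeks old. No genetic change was made in either group. Each library came from 1 mouse, and expression levels are FPKM, that is, fragments counted per kilobase of transcript and scaled to the mapped total. All 10 members passed the filter for the test, an average FPKM of 1 or more without any 0.

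The unfolded protein response is the reaction of a cell to proteins that fail to fold in the endoplasmic reticulum (ER), the compartment where secreted and membrane proteins are made. Ern1 (IRE1), Eif2ak3 (PERK) and Atf6 are sensors in the ER membrane. They act through the transcription factors Xbp1, Atf4 and the cleaved part of Atf6 itself, which raise ER chaperones, genes of protein disposal and genes of amino acid supply, while Ddit3 (CHOP) is known for its role in cell death under lasting stress. Atf4 also serves the wider integrated stress response, which other kinases can start. Much of this pathway is set by splicing, translation and protein cleavage, and an RNA level summed over a gene does not read these steps.

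Calr and Canx, the ER lectin chaperones, share the ER stress response element (ERSE) in their promoters. The sequences below run from 250 to 21 bases before the RefSeq start of each gene on GRCm38.p6, 5′ to 3′ on the strand of the gene, with the element in capitals. The Calr window is chr8:84846952-84847181 and the Canx window is chr11:50325694-50325923, both on the minus strand. Herpud1, at chr8:94386179-94386408 on the plus strand, is shown for its ERSE-II, a related element that was looked for after the data had been seen.

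Calr: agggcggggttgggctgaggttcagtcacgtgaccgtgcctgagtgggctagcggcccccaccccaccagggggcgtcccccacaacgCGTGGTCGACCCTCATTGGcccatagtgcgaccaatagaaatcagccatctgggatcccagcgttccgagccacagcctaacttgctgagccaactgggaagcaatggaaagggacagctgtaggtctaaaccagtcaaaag
Canx: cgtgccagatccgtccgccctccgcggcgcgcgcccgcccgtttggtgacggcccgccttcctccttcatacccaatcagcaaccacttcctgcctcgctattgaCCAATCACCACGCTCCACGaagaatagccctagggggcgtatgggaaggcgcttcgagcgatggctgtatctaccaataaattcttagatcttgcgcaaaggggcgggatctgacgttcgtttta
Herpud1: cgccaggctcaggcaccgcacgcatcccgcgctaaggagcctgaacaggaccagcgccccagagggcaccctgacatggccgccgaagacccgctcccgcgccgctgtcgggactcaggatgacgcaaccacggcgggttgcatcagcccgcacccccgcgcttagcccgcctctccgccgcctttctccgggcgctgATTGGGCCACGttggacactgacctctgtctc

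ERSE was searched as CCAAT, 9 free bases and CCACG on both strands. In Calr it lies on the opposite strand, from 162 to 144 bases before the start, and in Canx on the strand of the gene, from 145 to 127 bases before it. Of the 32851 RefSeq promoters of 300 bases in the table, 39 (0.119%) hold this element. ERSE-II, searched as ATTGGNCCACG, is in 12 of these promoters (0.0365%) and lies 52 to 42 bases before the start of Herpud1. Promoters were found for 9 of the 10 members, all but Atf6. Of these 9, only Calr and Canx held ERSE. The exact letters TGACGTGG (UPR element, 0.676% of all promoters) and TGATGNAAT (C/EBP-ATF element, 0.965%) were in 0 of these 9. The Herpud1 window holds gttgcatca, which on the opposite strand matches TGATGNAAT in every letter but the last. Matches with another last letter were not counted, so the search does not show that Herpud1 lacks an element of this kind. Among the 20 ER folding genes with a promoter, ERSE was in 5, Hspa5, Hsp90b1, Pdia6, Ero1lb and Creld2. It was also in Dnajc3 and Derl3, and in Syvn1, which rose on the high fat diet. On that diet Calr, Canx and Hsp90b1 fell, while Hspa5, Pdia6, Ero1lb, Creld2 and Dnajc3 did not pass the test given below. Derl3 had no level in the data. A match or its absence describes only these exact letters in this window, and neither was tested for binding.

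Because FPKM is scaled by length, levels can be set beside each other between genes. By mean FPKM over the 8 mice the order was Calr (167), Canx (137), Atf4 (67.2), Xbp1 (43.7), Herpud1 (29.6), Ddit3 (24.9), Atf6 (18), Eif2ak3 (9.11), Sdf2l1 (8.99) and Ern1 (2.62). The chaperones were the most abundant members and the sensors were among the scarcest. Each gene exceeded the next one in 8 of 8 mice, except that Eif2ak3 exceeded Sdf2l1 in only 5 of 8, so these 2 neighbours were not separated. The ranges over all mice also overlapped for Calr and Canx and for Herpud1 and Ddit3.

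In high fat diet fed mice 3 members fell (Atf4, Calr and Canx), 1 rose (Ern1) and 6 did not pass the test. The test was limma on log2(FPKM + 0.1), two-sided, adjusted by Benjamini-Hochberg across 13982 genes, with a threshold of 0.05, and fold changes are on that scale, which understates the change of low genes. By this rule 33.1% of all genes tested were called, 17.7% higher and 15.3% lower, so the share of 4 in 10 members was close to that of all genes. The 4 values of one diet lay wholly apart from those of the other for 4 members, and for 31.9% of all genes. No member changed by more than 1.5-fold (0 of 10), against 7.13% of all genes called with such a change. The median log2 fold change was -0.03 over the members and 0.0031 over all genes.

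**Figure D1:**
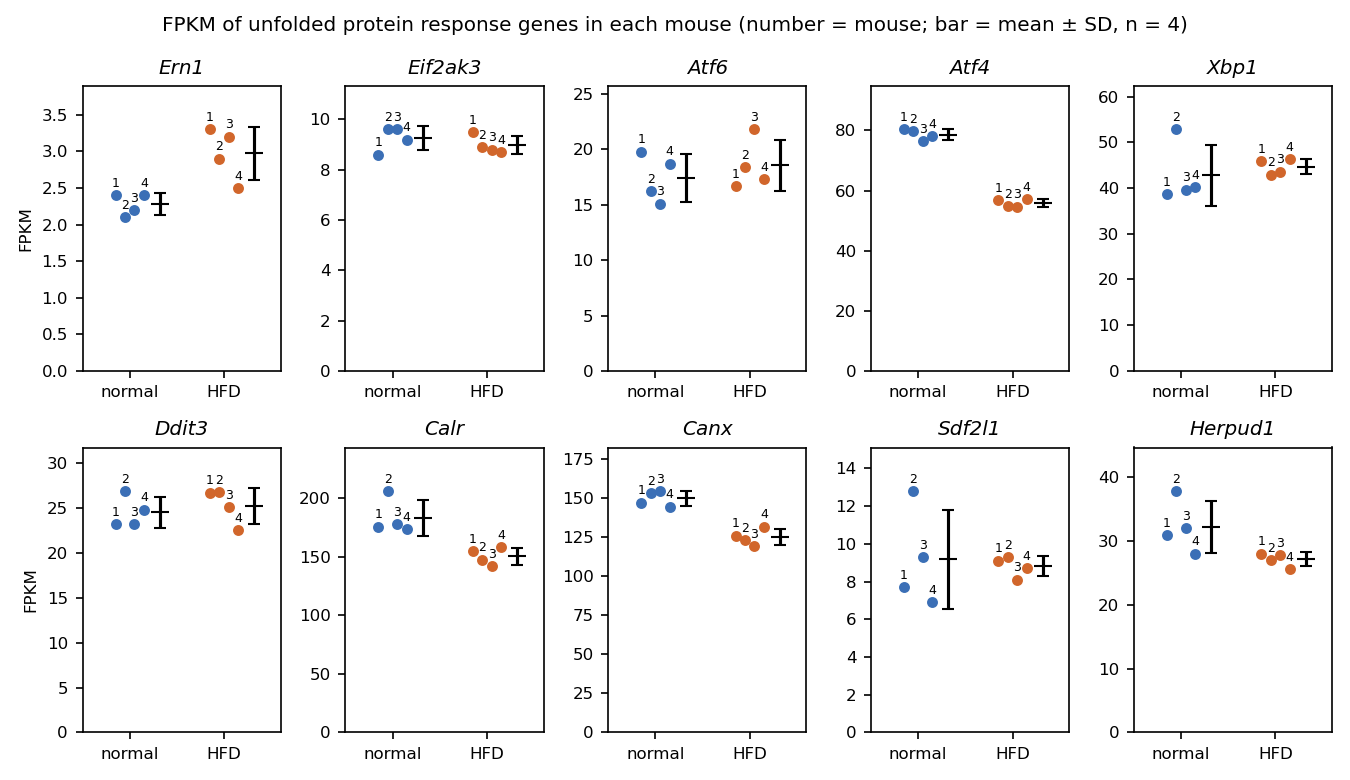
FPKM (vertical axes, from 0, a separate scale for each gene) of the 10 members in the 4 normal mice (blue) and the 4 HFD mice (orange), with the number of each mouse and the mean ± SD of each diet. Atf4, Canx, Calr and Ern1 have no overlap between diets, and normal mouse 2 stands above the other normal mice in Xbp1, Calr, Sdf2l1 and Herpud1.

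Atf4, the transcription factor that carries the PERK signal to genes of amino acid supply, showed the largest change of the 10 members. It lies on chromosome 15 of GRCm38 from 80255184 to 80257541 on the plus strand. Its FPKM was 80.3, 79.7, 76.4 and 78.0 in normal mice and 56.8, 54.9, 54.6 and 57.2 in HFD mice. Within each diet the mice lay close together, and the lowest normal mouse stood well above the highest HFD mouse. The mean fell from 78.6 ± 1.76 to 55.9 ± 1.31 (SD, n = 4 each), a log2 fold change of -0.49 (standard error, SE, 0.04, limma adjusted p = 0.00014), or a decrease to 0.711 of the normal level. When single mice were left out, the log2 fold change stayed between -0.51 and -0.48, and it passed the threshold in 8 of 8 fits.

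The other 2 transcription factors did not pass the test. Ddit3, a target of Atf4 (chromosome 10, 127290774 to 127296288, plus strand), was 23.2, 26.9, 23.2 and 24.8 FPKM in normal mice and 26.7, 26.8, 25.1 and 22.5 in HFD mice, and the diets overlapped over nearly their whole range. Its log2 fold change was 0.04 (95% interval -0.12 to 0.20, limma adjusted p = 0.671). Of its exon bases in GENCODE M21, 3.97% are shared with Mars on the opposite strand and 6.13% with a second gene model of the same name, and reads there could be split.

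Xbp1, the target of the IRE1 nuclease (chromosome 11, 5520659 to 5525893, plus strand), was 38.6, 52.8, 39.6 and 40.2 FPKM in normal mice and 45.9, 42.9, 43.6 and 46.3 in HFD mice. Of the normal mice, 3 lay below all HFD mice, and normal mouse 2 lay above all of them. The log2 fold change was 0.07 (95% interval -0.13 to 0.28, limma adjusted p = 0.57). Without normal mouse 2 it was 0.18 (standard error 0.05) and passed the threshold, with adjusted p = 0.0292 from limma, so the result for Xbp1 rests on this mouse. The FPKM sums the spliced and unspliced forms, which were not separated here.

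Among the sensors, Ern1 rose and the others did not pass the test. Ern1 (chromosome 11, 106394650 to 106487852, minus strand) was 2.4, 2.1, 2.2 and 2.4 FPKM in normal mice and 3.3, 2.9, 3.2 and 2.5 in HFD mice. HFD mouse 4 lay only 1 rounding step of 0.1 above the highest normal mice. The mean rose from 2.28 ± 0.15 to 2.98 ± 0.359 (SD, n = 4 each), a log2 fold change of 0.37 (SE 0.11, limma adjusted p = 0.03). Of the 8 fits that left out a mouse, 3 kept the call. The call did not survive the loss of normal mouse 2 or 3 or of HFD mouse 1, 2 or 3 (limma adjusted p up to 0.0824), or the fit with the replicate number as a block (limma adjusted p = 0.0657).

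Eif2ak3, the PERK kinase that slows translation (chromosome 6, 70844515 to 70905245, plus strand), was 8.6, 9.6, 9.6 and 9.2 FPKM in normal mice and 9.5, 8.9, 8.8 and 8.7 in HFD mice. These ranges nearly coincide, and the log2 fold change was -0.04 (95% interval -0.17 to 0.09). Atf6 (chromosome 1, 170704674 to 170867771, minus strand) was 19.8, 16.2, 15.1 and 18.7 FPKM in normal mice and 16.7, 18.4, 21.8 and 17.3 in HFD mice, with a log2 fold change of 0.09 (95% interval -0.15 to 0.32). Each diet covered most of the range of the other. The intervals of Eif2ak3, Atf6 and Ddit3 leave out a change of 1.5-fold.

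The ER lectins, which hold newly made glycoproteins until they are folded, fell together. Calr, the soluble lectin calreticulin and a calcium store of the ER (chromosome 8, 84841850 to 84846934, minus strand), was 175.5, 206.1, 178.0 and 173.6 FPKM in normal mice and 154.5, 147.5, 141.8 and 157.9 in HFD mice. Normal mouse 2 was far above the other normal mice, and all 4 normal mice were above all 4 HFD mice. The mean fell from 183 ± 15.3 to 150 ± 7.2 (SD, n = 4 each), a log2 fold change of -0.28 (SE 0.06, limma adjusted p = 0.0096). Without normal mouse 2 the log2 fold change was -0.23 and still passed (limma adjusted p = 0.0176).

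Canx, the membrane-bound lectin calnexin (chromosome 11, 50293961 to 50325673, minus strand), was 147.0, 153.1, 154.4 and 144.3 FPKM in normal mice and 125.8, 123.0, 119.2 and 131.6 in HFD mice. The diets were separate, with no mouse far from its group. The log2 fold change was -0.26 (SE 0.05, limma adjusted p = 0.00336), and Calr and Canx passed the threshold in 8 of 8 fits with a mouse left out.

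Herpud1, a membrane protein of ER-associated degradation (chromosome 8, 94386438 to 94395377, plus strand), was 30.9, 37.8, 32 and 28.0 FPKM in normal mice and 28.0, 27.0, 27.8 and 25.6 in HFD mice. Normal mouse 4 equalled the highest HFD mouse. Its log2 fold change of -0.24 (95% interval -0.42 to -0.05) narrowly missed the threshold, with adjusted p = 0.0501 from limma. It passed in 1 of 8 fits with a mouse left out, that without normal mouse 4 (-0.30, limma adjusted p = 0.0151), and also under a minimum mean of 5 FPKM, median-ratio rescaling or quantile normalization (adjusted p = 0.0462, 0.0434 and 0.0463 from limma).

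Sdf2l1, a partner of the ER chaperone BiP (chromosome 16, 17130138 to 17132383, minus strand), was 7.7, 12.8, 9.3 and 6.9 FPKM in normal mice and 9.1, 9.3, 8.1 and 8.7 in HFD mice. All HFD values lay inside the spread of the normal mice, which was widest at normal mouse 2. The log2 fold change was -0.02 (95% interval -0.39 to 0.34, limma adjusted p = 0.931), an interval that leaves out a change of 1.5-fold, and it turned to 0.15 without normal mouse 2.

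**Figure D2:**
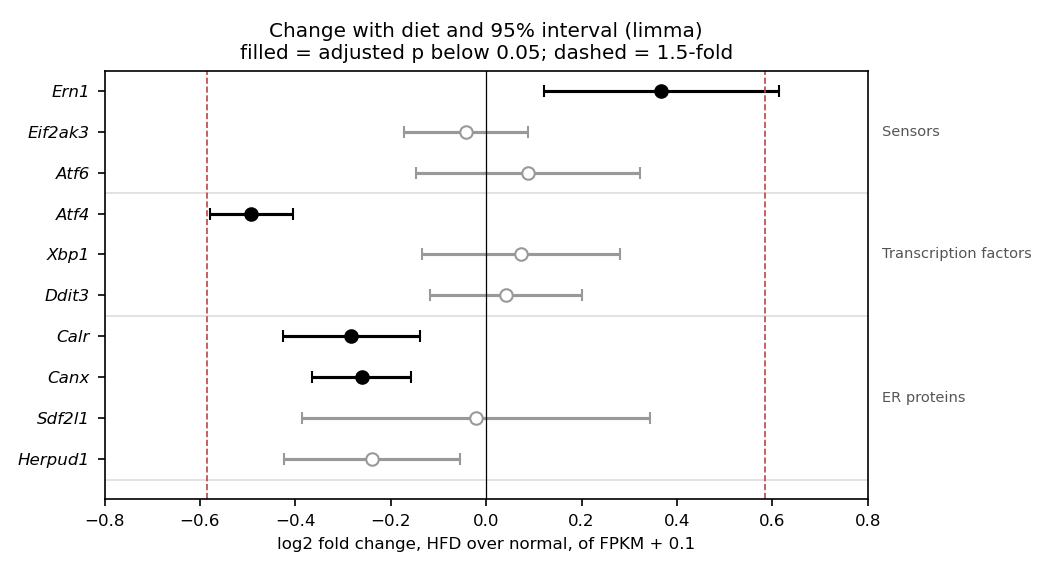
Log2 fold change of each member, HFD over normal, on the scale of FPKM + 0.1 (horizontal axis), with its 95% interval from limma, in the order sensors, transcription factors and ER proteins. Filled points passed the adjusted threshold, which holds for Ern1 (0.37), Atf4 (-0.49), Calr (-0.28) and Canx (-0.26), and dashed lines mark 1.5-fold.

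Other genes of the pathway were taken from 5 lists of known function. Known Atf4 targets, a list that holds genes of amino acid supply and tRNA charging beside stress regulators such as Ddit4 and Cebpb, fell in 10 of 25 tested cases and rose in 0, with a median log2 fold change of -0.15. At an unadjusted p below 0.05 the counts by limma were 10 lower and 1 higher. The 1 higher was Slc7a11, at a log2 fold change of 0.295 (limma adjusted p = 0.0505). With a mean FPKM of at least 5, 1 target was called higher and 9 lower. Without HFD mouse 3 these counts were 1 and 10, and without HFD mouse 4 they were 1 and 8. Of the 25 targets, 18 had a negative log2 fold change. Asns, which makes asparagine, fell from 48.5 ± 3.36 to 39.5 ± 2.18 FPKM (SD, n = 4 each), a log2 fold change of -0.30 (limma adjusted p = 0.006), with all normal mice above all HFD mice. The largest falls were those of Mthfd2, a mitochondrial folate enzyme (-0.68), Ddit4, an inhibitor of mTOR (-0.51), and Aldh18a1, an enzyme of proline synthesis (-0.36). Among the tRNA synthetases of the list, Nars, Gars, Sars and Aars fell, with log2 fold changes of -0.31, -0.26, -0.18 and -0.15, and Wars did not pass the test (-0.02). Trib3, Atf3, Pycr1, Stc2 and Gdf15, also among the 30 listed targets, had no level in the data and could not be tested. Of the targets tested, 40.0% were called, all of them lower. Of all genes tested, 33.1% were called, made up of 17.7% higher and 15.3% lower.

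ER folding genes fell in 6 of 22 cases and rose in 0, so that 27.3% were called, against 33.1% of all genes tested (15.3% lower). At an unadjusted p below 0.05 the counts by limma were 8 lower and 2 higher. Hsp90b1, the ER form of HSP90, fell most, from 158 ± 10 to 121 ± 4.15 FPKM (SD, n = 4 each), a log2 fold change of -0.38 (SE 0.05, limma adjusted p = 0.00143). Manf, a secreted ER stress protein, and P4hb, a disulfide isomerase, followed with -0.33 and -0.31. Hspa5 (BiP), the main ER chaperone and a classic readout of the response, did not pass. Its FPKM was 105.3, 166.3, 117.3 and 109.4 in normal mice and 106.4, 103.4, 99.3 and 115.5 in HFD mice, with normal mouse 2 far above the rest. The log2 fold change of Hspa5 was -0.21 (95% interval -0.50 to 0.08), and -0.06 without that mouse. Dnajb9, a target of Xbp1, was at -0.04 (95% interval -0.20 to 0.12). Without HFD mouse 2 the count of ER folding genes that fell was 3.

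Genes of ER translocation, glycosylation and export fell in 11 of 29 cases and rose in 0, so that 37.9% were called, near the 33.1% of all genes tested (15.3% lower), with 13 lower and 0 higher at an unadjusted p below 0.05 by limma. Sec61g and Sec62, parts of the translocation channel, and Spcs1, of the signal peptidase, fell most, with log2 fold changes of -0.36, -0.35 and -0.33. Of 18 genes of ER-associated degradation, 5 fell and 2 rose, so that 38.9% were called, near the 33.1% of all genes. The ubiquitin ligase Syvn1 rose from 5.63 ± 0.171 to 7.83 ± 0.918 FPKM (SD, n = 4 each), a log2 fold change of 0.46 (limma adjusted p = 0.00399), and Herpud2, a relative of Herpud1, rose by 0.30 on the log2 scale. Vimp, Ube2j1, Faf2, Derl1 and Vcp, which serve the removal of proteins from the ER, fell, with log2 fold changes of -0.35, -0.21, -0.19, -0.17 and -0.15. Without normal mouse 2, HFD mouse 1 or HFD mouse 2 the count of this list was 4 in place of 7, with 2 higher and 2 lower in each.

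Of 17 stress kinases and regulators, 4 fell and 3 rose, so that 41.2% were called, near the 33.1% of all genes. Wfs1, an ER membrane protein, had the largest rise of all 5 lists, with 19.0, 17.1, 18.5 and 20.3 FPKM in normal mice and 40.3, 35, 21.6 and 36.8 in HFD mice. HFD mouse 3 lay just above the normal mice, and the log2 fold change was 0.80 (SE 0.17, limma adjusted p = 0.00701). Eif2ak4 (GCN2), the kinase that reads amino acid shortage, rose by 0.27 and Map3k5, a stress kinase downstream of IRE1, by 0.25 on the log2 scale. Eif2ak2 (PKR), Eif2s1, the subunit of eIF2 that GCN2, PKR and PERK phosphorylate, and Ppp1r15b, which helps to remove that phosphate, fell with log2 fold changes of -0.53, -0.33 and -0.15, as did Rtcb, the RNA ligase that joins spliced Xbp1 (-0.13). Eif2ak2 was low, at 2.08 ± 0.359 and 1.40 ± 0.163 FPKM (SD, n = 4 each), where rounding limits precision. Ppp1r15a, the stress-induced partner of Ppp1r15b, was at -0.07 (95% interval -0.27 to 0.13), and Atf6b, a relative of Atf6, at 0.15 (95% interval 0.02 to 0.28, limma adjusted p = 0.0686). Without normal mouse 3 or HFD mouse 2 the count of this list was 4 in place of 7, with 2 higher and 2 lower in both.

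**Figure D3:**
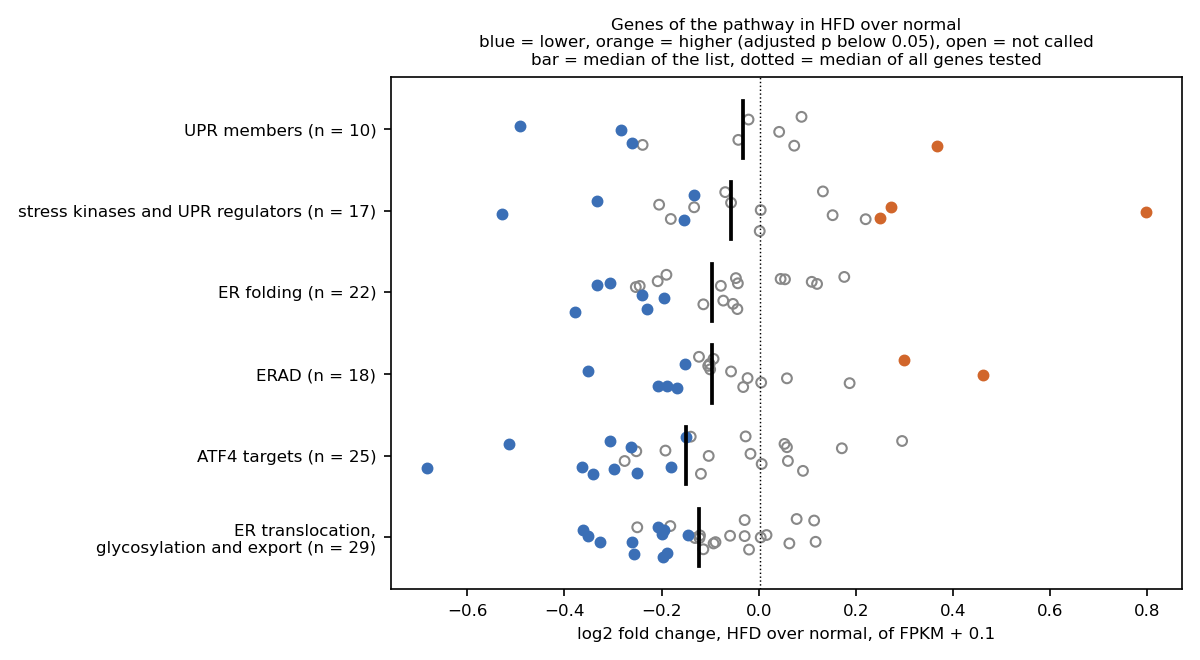
Log2 fold change, HFD over normal, of every tested gene in the members and the 5 other lists (horizontal axis), blue where lower and orange where higher at an adjusted p below 0.05 and open where not called. The medians of the lists (bars) run from -0.03 for the members to -0.15 for Atf4 targets, and the dotted line is the median of all genes tested, 0.0031.

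Markers of other cell types and regions differed between the diets, and the part of these in the results was not tested. In bulk tissue, the share of a region in the sample, fewer cells of a type and less RNA per cell cannot be told apart. All 10 oligodendrocyte markers and all 9 striatal markers tested fell, 5 of 7 cerebellar markers fell, and 6 of 8 markers of cortical projection neurons rose. The summed FPKM ran from 2146 to 3537 in normal mice and from 1482 to 2060 in HFD mice for oligodendrocytes, from 238.8 to 440.1 and from 79.4 to 88.9 for striatum, from 22 to 353 and from 16.2 to 19 for cerebellum, and from 277.2 to 424.1 and from 469.7 to 554.6 for projection neurons. Gabra6, a cerebellar marker, was listed at 0 in HFD mouse 1. Of the other lists, 2 of 7 astrocyte, 3 of 7 choroid plexus and 4 of 9 heat shock genes fell, 3 of 6 endothelial genes fell and 1 rose, and 5 of 10 immediate early genes fell. The choroid plexus sum was 79.7, 23.3, 29.2 and 952 in HFD mice and from 347 to 735.2 in normal mice, so HFD mouse 4 was the highest of all. Of 9 clock genes of PER phase, 8 rose. Of 9 glucocorticoid-responsive genes, 2 rose and 1 fell, and of 6 microglial genes 0 were called by limma, with 1 higher at an unadjusted p below 0.05.

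Normal mouse 1, with a cerebellar sum of 22 next to that of HFD mice, held 80.3 FPKM of Atf4, 175.5 of Calr, 147.0 of Canx and 2.4 of Ern1. The same mouse had the highest striatal sum of the 8 (440.1) and a choroid plexus sum of 672.5. Normal mouse 4 and HFD mouse 3 were close in the oligodendrocyte sum (2146 and 2060) and differed in Atf4 (78.0 and 54.6), Calr (173.6 and 141.8) and Canx (144.3 and 119.2). This pair was chosen after the values were seen, and it also differed in the sums of striatum (238.8 and 88.9), choroid plexus (347 and 29.2) and projection neurons (424.1 and 554.6). Because Atf4, Calr and Canx did not overlap between the diets, any normal mouse set beside any HFD mouse would differ in them. The part of the markers in these genes was not tested. With the mean log2 level of cerebellar markers as a covariate, whose list sum did not overlap between the diets, 3.51% of all genes were called. Atf4 was at -0.53 and passed in this fit (limma adjusted p = 0.01). Calr (-0.17), Canx (-0.19) and Ern1 (0.20) did not, with adjusted p = 0.363, 0.176 and 0.576 from limma, and their standard errors rose to 0.11, 0.08 and 0.19. Of the 5 other lists, 2 Atf4 targets and 0 genes of the remaining 4 were called by limma in that fit. The cerebellar sum varied mostly among normal mice (22 to 353), against 16.2 to 19 in HFD mice. No fit used the markers of striatum or oligodendrocytes as a covariate, and their part in Atf4 was not tested.

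Normal mouse 2 stood apart in some ER chaperones, a pattern noticed after the values were seen. It held the highest FPKM of the 4 normal mice for 5 of the 10 members (Xbp1, Ddit3, Calr, Sdf2l1 and Herpud1) and for 14 of 22 ER folding genes, against 22.7% of all genes. Its level exceeded the mean of the other normal mice by 0.69 on the log2 scale for Sdf2l1, 0.68 for Creld2, 0.59 for Hspa5, 0.45 for Manf, 0.44 for Pdia4, 0.42 for Xbp1 and 0.32 for Herpud1. Other ER chaperones and Xbp1 or Atf6 targets differed less in this mouse, such as Dnajb9 (0.17), Hsp90b1 (0.12), Hyou1 (0.11), Syvn1 (0.06), Edem1 (0.01) and Sel1l (-0.02). Of 25 Atf4 targets, 6 (24%) were highest in this mouse, and Mthfd2 exceeded the other normal mice by 0.35. The same mouse was also highest for 9 of 10 oligodendrocyte markers, 8 of 9 heat shock genes and 7 of 9 glucocorticoid-responsive genes, and the part of these was not tested.

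**Figure D4:**
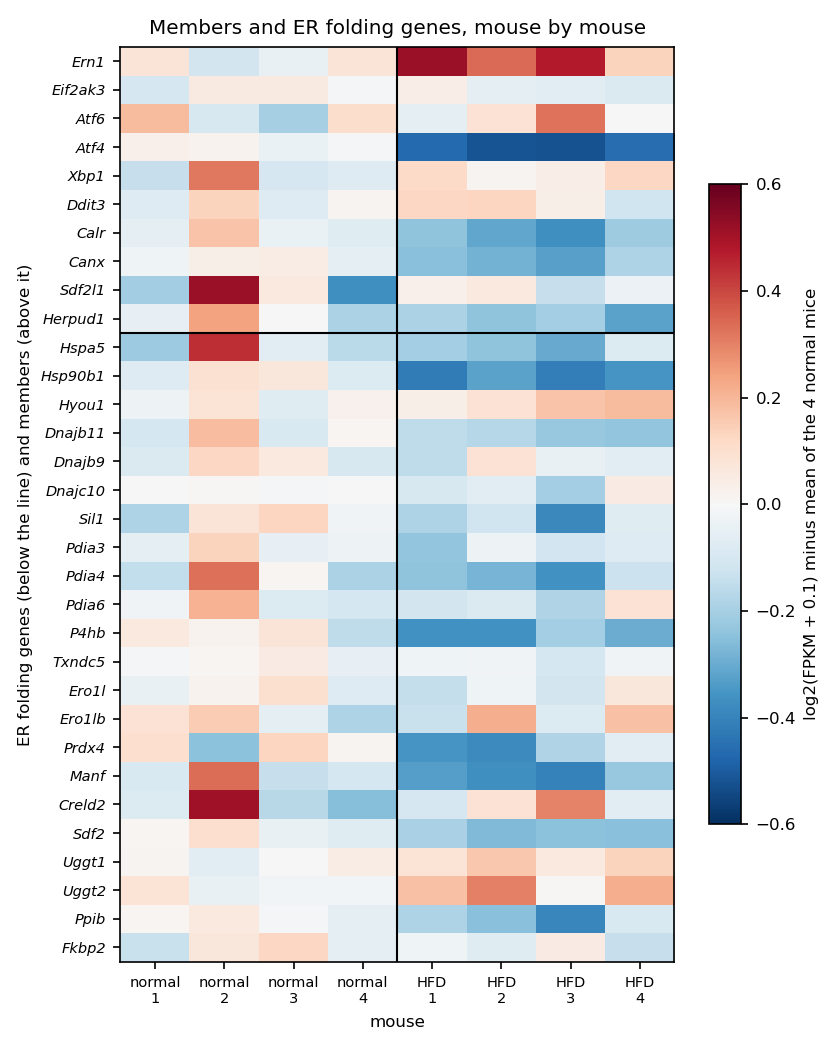
Log2(FPKM + 0.1) of the 10 members (above the line) and 22 ER folding genes (below it) in each mouse, relative to the mean of the 4 normal mice (red higher, blue lower, colours end at 0.6 each way). Normal mouse 2 is red in Xbp1, Sdf2l1, Herpud1, Hspa5, Manf and Creld2, and the HFD mice are blue in Atf4, Calr, Canx and Hsp90b1.

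Relations within diets were tested for 6 pairs of a regulator and a gene of its arm or of close partners, on log2 levels after subtraction of each diet's mean (n = 8 mice, exact permutation within diets over 576 arrangements, smallest p = 0.00174). Hspa5 and Sdf2l1 had Pearson's r = 0.90 (exact two-sided p = 0.0434, or 0.146 when adjusted for 6 pairs), with a Spearman's rho of 0.76 (exact p = 0.0521, or 0.156 when adjusted). Leaving out the 2 most distant mice, normal mouse 2 and HFD mouse 4, gave r = 0.84. For every pair this step kept the diet means of all mice, so a dropped mouse still bore on the result. Leaving out normal mouse 2, with the diet means taken again, gave 0.48, so this relation rests in part on that mouse. Calr and Canx had r = 0.69 (exact p = 0.0486, adjusted p = 0.146) and rho = 0.81 (exact p = 0.0312, adjusted p = 0.156). Here r was 0.64 after the 2 most distant mice were dropped and 0.89 after normal mouse 2 was. For Xbp1 and Sdf2l1 r was 0.83 (exact p = 0.149, adjusted p = 0.237) and rho 0.48 (exact p = 0.365), with r = 0.40 after the 2 most distant mice were dropped, and r was -0.06 without normal mouse 2. Atf6 and Calr were at r = -0.61 (exact p = 0.158) and rho = -0.67 (exact p = 0.115), and at r = -0.39 after the same step. Atf4 showed r = -0.11 and rho = -0.22 with Ddit3 (exact p = 0.84 and 0.642), and r = 0.10 and rho = -0.24 with Herpud1 (exact p = 0.868 and 0.602). After the same step these r were -0.48 and 0.25. Without normal mouse 2, r was -0.75 for Atf6 and Calr, -0.35 for Atf4 and Ddit3 and -0.29 for Atf4 and Herpud1, the last of which changed sign. After adjustment 0 of the 6 pairs passed, while 2 had an unadjusted exact p below 0.05.

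The patterns most like each called member over the 8 mice, by Pearson's r after subtraction of diet means among genes averaging 10 FPKM or more, were Erlin2 (0.996) and Aamp (0.99) for Canx, Copg2 (0.974) and Cct8 (0.971) for Calr, Snx4 (0.963) and Gstm5 (0.961) for Atf4, and Agtpbp1 (0.959) and Midn (0.94) for Ern1. These were the highest of up to 6892 genes searched for each member, and no p is given.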

How the data were processed

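RNA of 8 cortexes was depleted of rRNA, made into stranded libraries and sequenced from both ends, with an RNA integrity number above 9 in all samples. The authors trimmed the reads (Trimmomatic), aligned them to mm10 (STAR) and computed the deposited FPKM with Cuffnorm on GENCODE M17 (GRCm38.p6). Their stated filter drops genes with a mean FPKM under 1 or any 0, and the 14 of 13996 genes in the table that do not meet it were left out of the test. Tool versions and the use of strand were not given in the sources used here. FPKM are rounded to 0.1, which hides the step of 1 read, so the depth is unknown. Sums of FPKM ran from 562431 to 639142.

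Here log2(FPKM + 0.1) was tested with limma 3.58.1 (R 4.3.3, variance trend) over 13982 genes, after a run on simulated data with known changes. The 1.5-fold limit is that of the study, whose t-test on FPKM was replaced by limma. The study kept only genes that also changed by Salmon and edgeR, a step that was not repeated here. Tables, exact tests and figures used Python 3.11.15, scipy 1.17.1 and matplotlib 3.10.9. Loci are from GENCODE M21 on GRCm38, a later release than that of the authors, and promoters from RefSeq on GRCm38.p6.

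Members, pathway lists, marker lists and alternatives were chosen with earlier results of these data known. Named genes were the members, 8 fixed pathway genes and up to 3 called genes each way with the largest change in each list. Other genes given with a value were added after their values were seen. They include 4 tRNA synthetases with Wars, and Creld2, Pdia4, Rtcb, Derl1, Vcp, Hyou1, Edem1, Sel1l and Slc7a11. Mice are separate animals, and the same number in both diets is only a name. Deviations of same-numbered mice from their diet means correlated at -0.04, -0.03, -0.11 and -0.07.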

Additional observations from a re-analysis of the deposited data

Results flagged for a closer look

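In a group of 4 mice, a value was marked when its gap to the nearest other mouse, divided by the range of the group, exceeded Dixon's 95% critical value for 4 samples. Among 70 groups (35 named genes in each diet) 4 were marked, or 5.71%, where chance marks about 1 in 20. Of these, 3 were normal mouse 2. Xbp1 was 52.8 FPKM in that mouse, against 38.6, 39.6 and 40.2 in the other normal mice (gap over range 0.887). Calr was 206.1 FPKM, against 175.5, 178.0 and 173.6 (0.865), and Manf was 39.5 FPKM, against 29.3, 28.4 and 29.0 (0.919). Aldh18a1, an Atf4 target, was 7.7 FPKM in HFD mouse 1, against 6.4, 6.6 and 6.5 in the other HFD mice (0.846), and this mouse was still below all normal mice.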

How the results depend on the processing

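The log2 fold changes of the members kept their direction and their side of the threshold in 150 of 169 comparisons with an alternative. Another added constant (1 or 0.01), no filter on low values and no variance trend left 4 members called. A mean FPKM of at least 5 also gave 4, Herpud1 among them, and removed Ern1 from the test. Median-ratio rescaling and quantile normalization each gave 5, with Herpud1 added. With the replicate number as a block, 3 members were called, and regulators, ER folding and ER-associated degradation had 3, 3 and 4 genes called in place of 7, 6 and 7. No other count named here moved by over 1.5 times with the block. With the cerebellar covariate, 491 genes, 1 member, 2 Atf4 targets and 0 genes of each of the other 4 lists were called. The direction turned in that fit for Eif2ak3 (0.078), Atf6 (-0.22) and Sdf2l1 (0.43), which were not called in any of the fits run. With each mouse left out, 3 to 5 members were called, 4 to 8 regulators, 3 to 7 ER folding genes, 4 to 7 genes of ER-associated degradation, 8 to 11 Atf4 targets and 8 to 11 genes of translocation. Sdf2l1 ran from -0.14 to 0.15 in these fits. Rounding to 0.1 FPKM limits genes of low level, such as Ern1 and Eif2ak2. With a mean FPKM of at least 5, 38.1% of all 9638 genes were called, 1869 higher and 1802 lower. At that minimum the lists had 52.6% (Atf4 targets), 42.9% (regulators), 41.2% (ER-associated degradation), 39.3% (translocation) and 27.3% (ER folding) called.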
